A study of Mus musculus with 6 samples.

Results

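The mitochondrial ribosomal protein genes were taken as all genes whose single platform symbol began with Mrpl or Mrps followed by a number. This gave 76 of 18194 measured genes, 47 of the large subunit (Mrpl) and 29 of the small subunit (Mrps), covered by 156 of the 34958 probe sets with 1 gene symbol. Where a gene had several probe sets, the brightest one (by mean log2 intensity over all 6 arrays) stood for it. The study compared leukaemic progenitors of mouse bone marrow with and without an induced Notch signal, on Affymetrix expression arrays with 3 samples per group. The N1-IC group carried the alleles EF1αwt/lsl-N1-IC and ROSAwt/CreERT2, so that a Cre-dependent cassette for the intracellular domain of Notch1 sat in the EF1α locus beside a tamoxifen-inducible Cre at ROSA, and its 3 samples were female by the labels. The WT group carried EF1αwt/wt with the same ROSAwt/CreERT2, and its 3 samples were male by the labels. In both groups the cKit+ donor cells had been infected with MLL-AF9 (the fusion oncogene of an acute myeloid leukaemia) linked to YFP, and 50000 of them went with 250000 wild-type support marrow cells into irradiated wild-type recipients aged 12 weeks. Both groups received 2 injections of tamoxifen (0.2 mg per g body weight) from 4 weeks after transplantation and were analysed 6 days after the last one. The sorted cells, called LGMP in the labels, were lineage-negative, cKit+, Sca1-, YFP+, CD34+ and FcgRII/III+ bone marrow cells.

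Mitochondria keep their own ribosome, which makes the few respiratory chain proteins that mitochondrial DNA encodes. Its RNAs come from mitochondrial DNA, but all of its proteins are encoded in the nucleus, made in the cytosol and imported. The small subunit binds messenger RNA and decodes it, and the large subunit joins amino acids and passes the new chain to the inner membrane. In myeloid leukaemia, mitochondrial translation is known as a process that leukaemic cells depend on.

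Sample-level facts bear on all values. Array medians lay between 5.63 and 5.67 log2 units, and genotype and sex cannot be told apart. The Y-linked Eif2s3y was the sole gene past the threshold. Notch1 itself had a log2 fold change of -0.0041, while Nrarp, a target of Notch signalling, had 8.01, 9.74 and 11.33 in N1-IC, against 7.22, 6.96 and 6.41 in WT. Kit, Cd34, Fcgr3 and Fcgr2b, genes of the sort gate, lay between 10.05 and 13.12 log2 units on all 6 arrays, with Cd34 lower on every N1-IC array. WT replicate 2 stood apart from the other WT arrays. Xist, the X-inactivation RNA, was at 10.70 there, against 5.64 and 5.42 on WT replicates 1 and 3, although Eif2s3y was also high (10.34). Its mean over 16 measured of 20 erythroid and megakaryocyte markers was 9.37. The N1-IC arrays had 6.26, 5.96 and 6.72, and the remaining WT arrays 5.88 and 6.84. Of the 16 markers 13 were highest on WT replicate 2, Pf4 of megakaryocytes among them. Hba-a1 and the megakaryocyte genes Gp9 and Itga2b were not. WT replicate 1 had the lowest mean over 15 measured of 17 late granulocyte genes, 7.98 against 10.01 to 10.51 elsewhere. Control probe sets for the 3′ and 5′ ends of Gapdh differed by 0.52 to 0.55 log2 units on N1-IC arrays and by 0.51 to 0.54 on WT arrays. The labels do not say that samples came from separate recipients, so p-values measure only the spread between these samples, which may be technical.

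Promoter sequences are shown for the 3 genes with the smallest p among those with a lower mean in N1-IC (Mrps12, Mrps18b, Mrpl16), for the gene with the smallest p among those with a higher mean (Mrps23), and for Mrps11, which starts 42 bases from Mrpl46 on the opposite strand. Each runs 5′ to 3′ on the gene's strand, from 250 bases before to 50 after the start site, from RefSeq (GRCm38.p6). Capitals mark matches to the motifs described further on.
Mrps12 (chr7:28741772-28742071, minus strand): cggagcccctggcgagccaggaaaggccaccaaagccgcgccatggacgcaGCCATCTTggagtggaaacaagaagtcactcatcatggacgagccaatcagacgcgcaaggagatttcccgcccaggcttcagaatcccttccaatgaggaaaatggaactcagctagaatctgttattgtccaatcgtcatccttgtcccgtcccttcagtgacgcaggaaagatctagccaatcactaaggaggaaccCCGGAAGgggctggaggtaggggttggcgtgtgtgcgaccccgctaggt
Mrps18b (chr17:35916391-35916690, minus strand): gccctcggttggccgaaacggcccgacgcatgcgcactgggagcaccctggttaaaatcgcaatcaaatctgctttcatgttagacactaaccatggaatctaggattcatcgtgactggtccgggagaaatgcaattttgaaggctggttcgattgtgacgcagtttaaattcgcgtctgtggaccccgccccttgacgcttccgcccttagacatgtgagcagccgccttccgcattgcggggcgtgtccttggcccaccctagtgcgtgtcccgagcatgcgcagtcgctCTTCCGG
Mrpl16 (chr19:11770165-11770464, plus strand): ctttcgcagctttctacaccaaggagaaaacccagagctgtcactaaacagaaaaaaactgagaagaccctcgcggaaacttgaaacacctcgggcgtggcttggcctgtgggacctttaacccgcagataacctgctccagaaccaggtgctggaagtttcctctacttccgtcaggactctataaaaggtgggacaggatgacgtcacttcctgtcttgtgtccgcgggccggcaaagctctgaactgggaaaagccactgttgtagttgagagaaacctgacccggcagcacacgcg
Mrps23 (chr11:88204138-88204437, plus strand): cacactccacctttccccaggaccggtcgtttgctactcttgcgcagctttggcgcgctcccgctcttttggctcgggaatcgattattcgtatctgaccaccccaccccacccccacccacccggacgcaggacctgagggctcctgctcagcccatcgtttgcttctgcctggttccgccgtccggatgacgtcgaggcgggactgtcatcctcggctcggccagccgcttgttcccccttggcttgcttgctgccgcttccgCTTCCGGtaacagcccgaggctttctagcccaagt
Mrps11 (chr7:78782881-78783180, plus strand): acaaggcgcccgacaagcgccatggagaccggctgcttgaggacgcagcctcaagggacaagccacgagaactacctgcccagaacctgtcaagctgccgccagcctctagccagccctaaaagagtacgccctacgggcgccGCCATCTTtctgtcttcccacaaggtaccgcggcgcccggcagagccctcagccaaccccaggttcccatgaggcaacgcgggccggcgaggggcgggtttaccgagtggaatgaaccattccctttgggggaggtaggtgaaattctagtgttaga

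The comparison asked whether these genes differed in RNA level between N1-IC and WT progenitors. Most had a slightly lower mean in N1-IC, and no single gene passed the test. Of 76 genes 62 had a lower mean in N1-IC (81.6%) and 14 a higher one, where 47.4% of all genes tested had a lower mean. Among the 6871 genes within the members' range of mean levels, 3710 (54.0%) did. The median log2 fold change was -0.12 in the large subunit and -0.11 in the small subunit, against 0.01 over all genes, and members ranged from -0.36 to 0.24. A median of -0.12 over all members corresponds to 7.82% less signal. In the limma fit 0 of 76 genes had an adjusted p under 0.05, where the share over all genes was 0.0055%, and the smallest adjusted p of a member was 0.618. At an unadjusted p under 0.05 there were 7 members, 6 lower (all genes 3.84%) and 1 higher (all genes 4.14%). In 16 members (21.1%) every N1-IC array lay below every WT array, where 6.52% of all genes did. In 2 members every N1-IC array lay above every WT array, where 8.32% of all genes did. Members share arrays, so they are not replicates of the comparison, and these counts carry no p. In RNA from a sorted population, fewer cells of a kind and less RNA per cell cannot be told apart.

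The size of the difference depended on WT replicate 2. The median deviation of the large-subunit genes from their own 6-array means was -0.047, -0.081 and -0.032 on N1-IC replicates 1, 2 and 3, against 0.014, 0.15 and 0.0095 on WT replicates 1, 2 and 3. For the small subunit it was -0.014, -0.12 and 0.0060 in N1-IC, against 0.039, 0.13 and -0.011 in WT. The large-subunit medians of the groups did not overlap, whereas N1-IC replicate 3 lay above WT replicate 3 in the small subunit. WT replicate 2 was the highest of the 6 arrays for 46 of 76 members (60.5%), where it was highest for 18.9% of all genes. N1-IC replicate 2 was the lowest for 30 members (39.5%), against 16.5% of all genes. Without WT replicate 2, 56 of 76 members (73.7%) had a lower mean in N1-IC, with 48.3% of all genes, and the medians were -0.060 in the large and -0.070 in the small subunit. With WT replicate 3 as the sole WT array, 52 of 76 had a lower N1-IC mean. WT replicate 2 also had the highest mean over the erythroid and megakaryocyte markers, though Gp9 and Itga2b were not highest there. The part of these markers in the result was not tested.

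**Figure D1:**
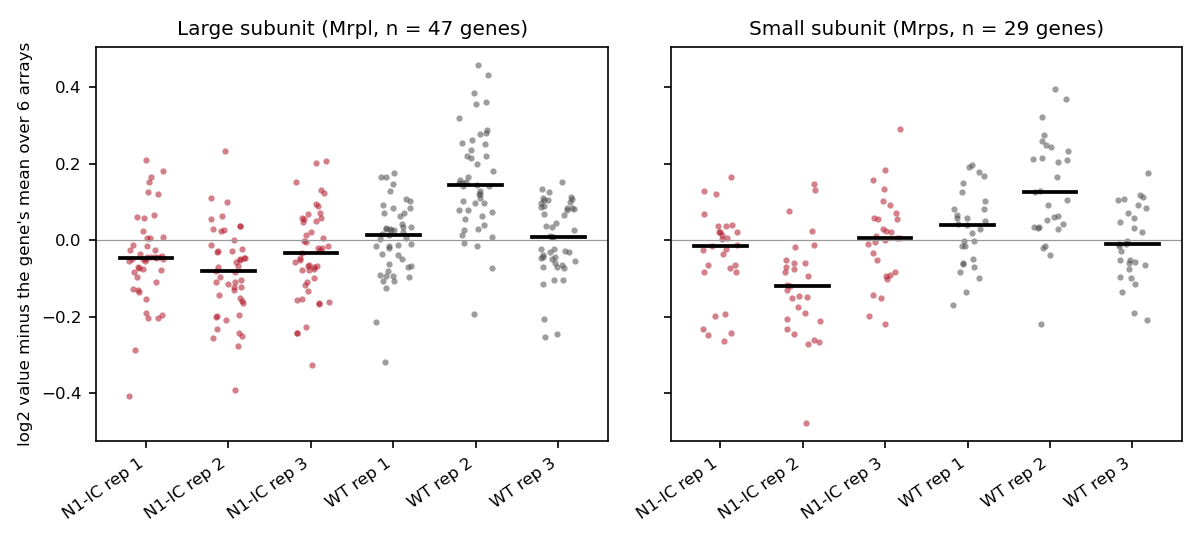
Each point is a gene, plotted as its log2 value minus its mean over the 6 arrays, by array, with the large subunit (47 genes) on the left and the small subunit (29 genes) on the right. Black bars are medians, red points N1-IC and grey points WT, and WT replicate 2 has the highest median in both panels (0.15 and 0.13).

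Scaling moved the zero line of the comparison. Centring adds the same constant to the log2 fold change of every gene, so the distance between members and other genes stays the same. When each array was centred on its median over genes, 49 of 76 members had a lower mean in N1-IC, where 33.9% of all genes did, and the medians were -0.051 in the large and -0.044 in the small subunit. Under that scaling 6 members were lower and 5 higher on every N1-IC array, where 3.84% of all genes were lower and 12.3% higher.

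The 3 genes with the smallest p among the lower members had groups that did not overlap. Mrps12, the counterpart of the bacterial protein S12 at the decoding centre, had log2 values of 11.02, 11.02 and 11.07 on the N1-IC arrays, against 11.41, 11.47 and 11.29 on the WT arrays. All N1-IC values lay below all WT values, and N1-IC arrays differed by less than WT arrays (SD of 0.028 and 0.095, n = 3 each). Its log2 fold change was -0.35 ± 0.089 (limma standard error), with an unadjusted p of 0.00709 and an adjusted p of 0.618. Its probe set is 1 of 6 brightest member probe sets with the suffix _s_at, by which Affymetrix marks probes that match transcripts of more than 1 gene. Mrps18b had 11.25, 11.37 and 11.43 in N1-IC, against 11.67, 11.84 and 11.55 in WT. The groups did not overlap, with WT replicate 3 closest to the N1-IC values, and the log2 fold change was -0.34 ± 0.11 (limma unadjusted p = 0.0214, adjusted p = 0.618). Mrpl16, which lies by the site of peptide bond formation, had 11.20, 11.29 and 11.27 in N1-IC, against 11.49, 11.67 and 11.46 in WT. Again no values of the groups overlapped, and the log2 fold change was -0.29 ± 0.095 (limma unadjusted p = 0.0213, adjusted p = 0.618). Without WT replicate 2 the log2 fold changes of Mrps12, Mrps18b and Mrpl16 stayed on the same side of 0, as they did without any other single array.

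Mrpl28, a component with a bacterial counterpart, had the lowest log2 fold change of all members. Its values were 10.01, 9.92 and 10.12 in N1-IC, against 10.35, 10.63 and 10.17 in WT. WT replicate 3 was only just above N1-IC replicate 3, and the log2 fold change was -0.36 ± 0.14 (limma adjusted p = 0.618). At -0.080 and 0.015, the log2 fold changes of its dimmer probe sets were near 0. Mrpl21, at -0.25 ± 0.089, had 10.30, 10.18 and 10.26 in N1-IC, against 10.44, 10.58 and 10.46 in WT, and the groups did not overlap. Its dimmer probe sets lay on the other side of 0, at 0.32 (higher on every N1-IC array) and 0.16, and the mean over its probe sets gave 0.079. Mrps6, of the small subunit's platform, had 10.20, 10.29 and 10.45 in N1-IC, against 10.50, 10.65 and 10.55 in WT, again with no overlap and a log2 fold change of -0.25 ± 0.103. Mrpl37 and Mrpl36 followed in the large subunit at -0.27 and -0.25, both without overlap between the groups. In Mrpl36 the N1-IC arrays spread widely, at 10.92, 10.57 and 11.01, against 11.13, 11.08 and 11.04 in WT.

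**Figure D2:**
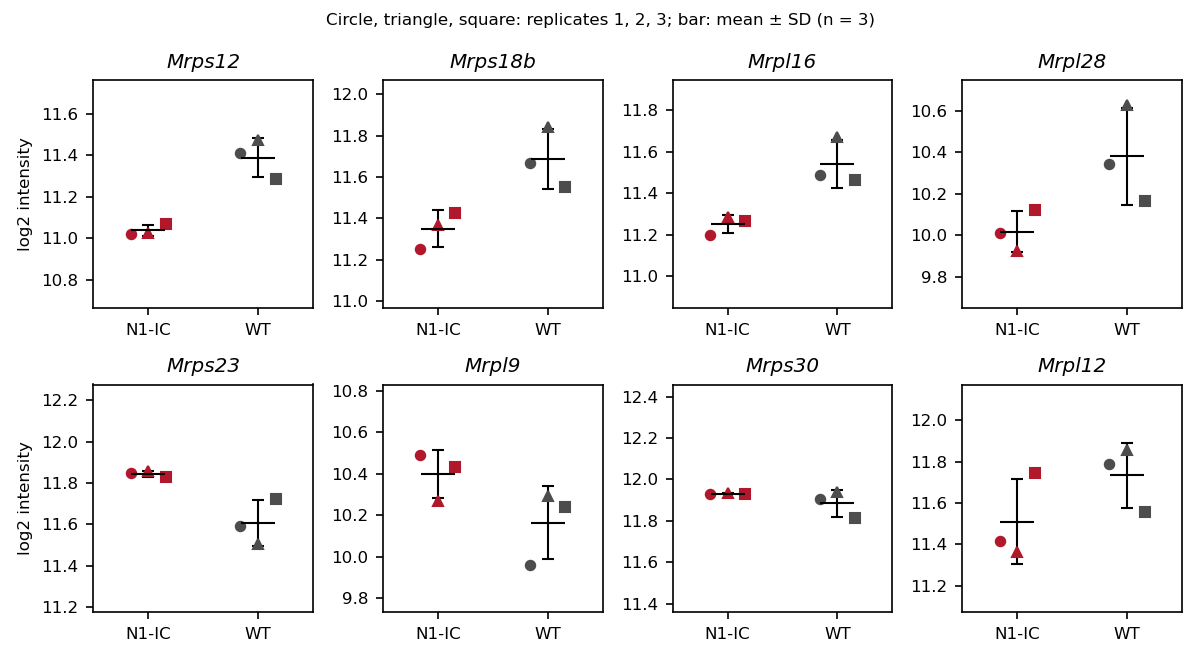
Log2 intensity of 8 members by array, N1-IC left in red and WT right in grey, with the mean and SD (n = 3) as black bars and each vertical axis spanning the same number of log2 units. Mrps12, Mrps18b, Mrpl16 and Mrpl28 are lower on every N1-IC array, Mrps23 is higher on every N1-IC array, and the groups overlap for Mrpl9, Mrps30 and Mrpl12.

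Among the 14 members with a higher mean, 2 had groups that did not overlap. Mrps23, a small-subunit protein with no bacterial counterpart, had 11.85, 11.86 and 11.83 in N1-IC, against 11.59, 11.51 and 11.72 in WT. Its N1-IC arrays were nearly equal (SD 0.015) and all above WT, with a log2 fold change of 0.24 ± 0.092 (limma unadjusted p = 0.0415, adjusted p = 0.618). This brightest probe set bears the suffix _x_at, for probes that may bind other transcripts, and the gene's remaining probe sets showed changes of -0.00094 and 0.021. Mrpl1 had 10.66, 10.94 and 10.73 in N1-IC, against 10.64, 10.63 and 10.64 in WT, a log2 fold change of 0.14 ± 0.102. The separation was small, since N1-IC replicate 1 exceeded the highest WT array by little, and its other probe sets had -0.081 and -0.79. Mrpl9 had a log2 fold change of 0.23 ± 0.12, but its groups overlapped, with 10.49, 10.27 and 10.43 in N1-IC, against 9.96, 10.29 and 10.24 in WT. Mrpl44 and Mrpl50 had log2 fold changes of 0.12 and 0.11, and Mrps27, Mrps2 and Mrpl10 had 0.055, 0.036 and 0.079, all with overlap.

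**Figure D3:**
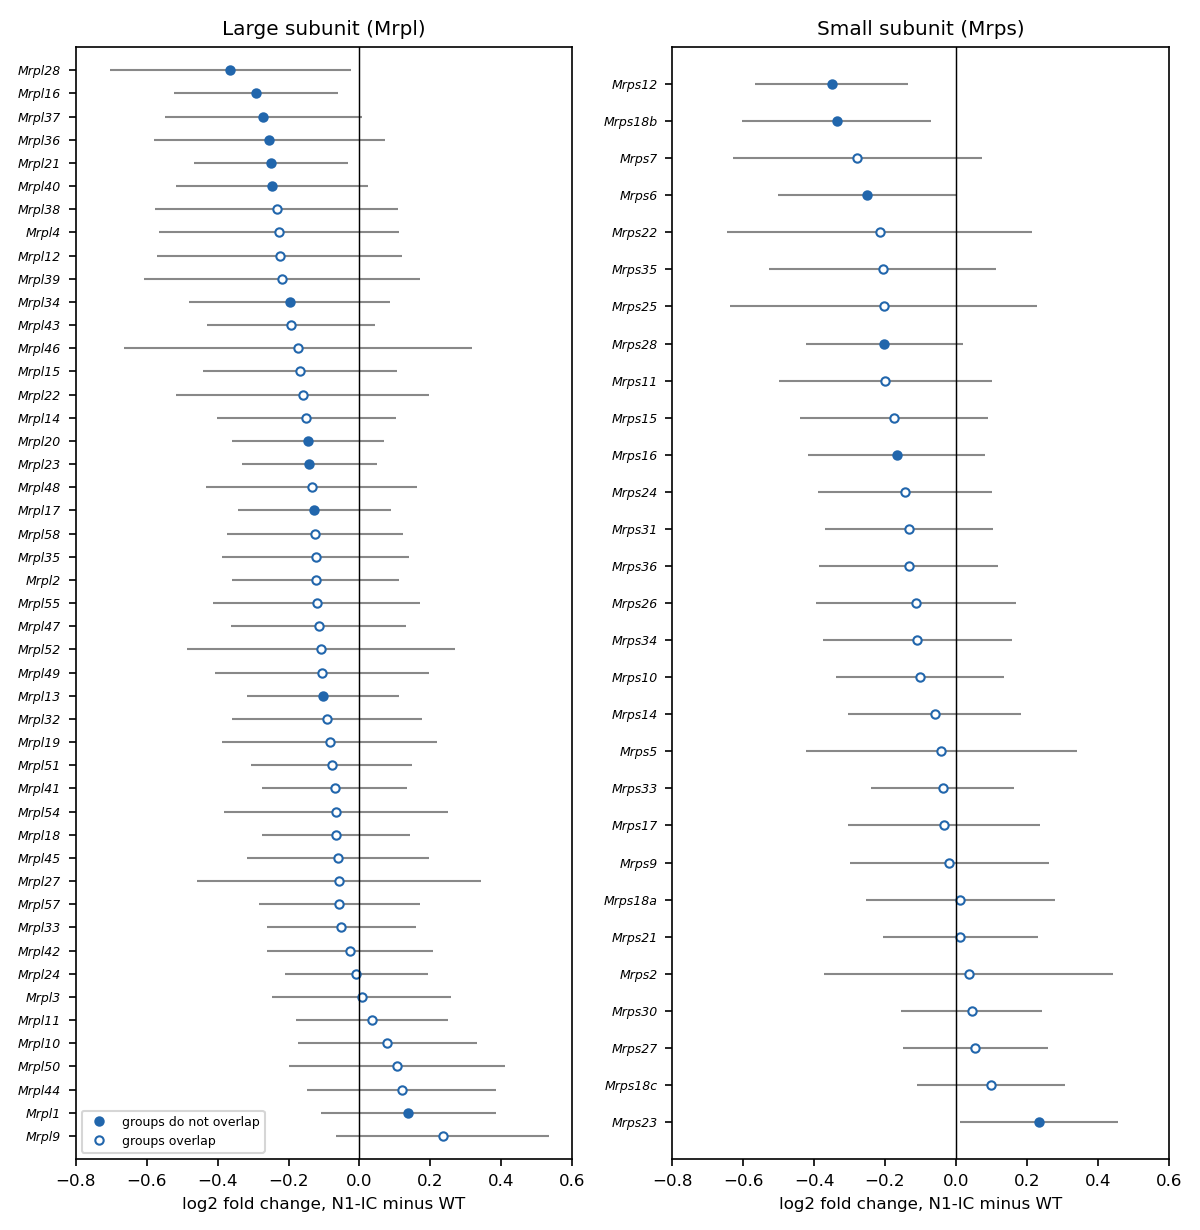
Log2 fold change (N1-IC minus WT) of all 76 members with the unadjusted 95% interval of the limma fit, large subunit on the left and small subunit on the right, sorted from lowest to highest. Filled points mark genes whose groups do not overlap (16 lower, 2 higher), and the intervals of 69 members include 0.

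By place in the ribosome, most sites of the large subunit held mainly genes with a lower mean in N1-IC. The share with a lower mean was 81.6% over all members and 47.4% over all genes. Around the site of peptide bond formation, 4 of 5 genes had a lower mean in N1-IC. Mrpl2, Mrpl4, Mrpl16 and Mrpl27 had log2 fold changes of -0.12, -0.23, -0.29 and -0.058, and Mrpl3 had 0.0058. At the exit where the new chain leaves, 7 of 8 genes were lower, with Mrpl17 (-0.13) and Mrpl23 (-0.14) lower on every N1-IC array. Mrpl22, Mrpl39, Mrpl47 and Mrpl45, the last an anchor to the inner membrane, had -0.16, -0.22, -0.11 and -0.060, Mrpl24 had -0.0090, and Mrpl44 had 0.12. In the central protuberance, the crest of the large subunit, 7 of 7 genes were lower, from -0.25 in Mrpl40, the one with no overlap, to -0.065 in Mrpl18. Of the 3 genes of the stalk, where translation factors dock, Mrpl10 and Mrpl11 had 0.079 and 0.035, and Mrpl12 had -0.22. Mrpl12 had 11.42, 11.37 and 11.74 in N1-IC, against 11.79, 11.86 and 11.56 in WT. Replicate 3 of each group lay on the other group's side, and the log2 fold change of Mrpl12 was -0.22 ± 0.14. The remaining 24 Mrpl genes had 21 lower and 3 higher means and a median of -0.103. The places were chosen with these values known, and no difference between them was tested.

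In the small subunit, genes of the body and of the head had lower means throughout, where 81.6% of all members and 47.4% of all genes did. In the body with the decoding centre 5 of 5 were lower, with Mrps12 and Mrps16 (-0.17) lower on every N1-IC array, Mrps15 at -0.17, Mrps5 at -0.041 and Mrps17 at -0.034. The dimmer probe sets of Mrps5 had larger changes, at -0.31, -0.47, -0.61 and -0.79. In the head 8 of 8 were lower, none without overlap (lower without overlap: 21.1% of all members and 6.52% of all genes). They ran from -0.28 in Mrps7, which had 10.04, 10.03 and 10.33 in N1-IC, against 10.27, 10.64 and 10.32 in WT, to -0.018 in Mrps9. On the platform, which faces the large subunit, Mrps6 and Mrps11 were lower (-0.25 and -0.20), whereas Mrps21 and Mrps18c had 0.013 and 0.098. The other 12 Mrps genes had 7 lower and 5 higher means and a median of -0.11.

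The family of Mrps18a, Mrps18b and Mrps18c, all related to bacterial S18, had fold changes of either sign. Mrps18b was lower by 0.34 on the log2 scale, as given above. Mrps18c, the copy that takes the place of S18, had 12.33, 12.19 and 12.23 in N1-IC, against 12.10, 12.16 and 12.19 in WT, a log2 fold change of 0.098 ± 0.086. Mrps18a, which despite its name sits in the large subunit, had 0.013 ± 0.109, with a 95% interval of -0.25 to 0.28. Mrps30, likewise a large-subunit protein by structure, was among the least variable members. It stood at 11.93 on all 3 N1-IC arrays, against 11.91, 11.94 and 11.81 in WT, a log2 fold change of 0.045 ± 0.082. Mrps36, now regarded as part of the 2-oxoglutarate dehydrogenase complex and not of the ribosome, had -0.13 ± 0.104. With Mrps18a and Mrps30 moved to the large subunit and Mrps36 left out, the medians were -0.11 in the large and -0.12 in the small subunit.

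Medians by conservation lay close together. Large-subunit genes (by structure) with a bacterial counterpart had a median log2 fold change of -0.12 (24 of 29 lower), and those found in mitochondria only had -0.092 (16 of 20 lower). In the small subunit the medians were -0.12 (13 of 16 lower) and -0.12 (8 of 10 lower). Mrps18a (large subunit by structure) and Mrps18b (small subunit) were counted as found in mitochondria only, though both are related to bacterial S18. In the large subunit 9 of the 29 genes with a bacterial counterpart (31.0%) and 2 of the 20 others (10%) were lower on every N1-IC array. In the small subunit 4 of 16 (25%) and 1 of 10 (10%, Mrps18b) were. Over all genes the share was 6.52%, and among genes within the members' range of mean levels it was 8.73%. No difference between the classes was tested.

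Members varied little between arrays. The median range over the 6 arrays was 0.35 log2 units, against 0.49 over all genes, and the median SD was 0.101 in N1-IC and 0.11 in WT. Members are bright, with a lowest value of 8.22 log2 units, against 1.99 over all genes. Their range was not compared with that of genes at the same level. The smallest ranges belonged to Mrpl24 (0.107), Mrps33 (0.125) and Mrps30 (0.125). The largest belonged to Mrpl46 (0.78), Mrpl28 (0.71) and Mrps25 (0.68). Mrpl46, of the central protuberance, had 9.84, 9.97 and 9.55 in N1-IC, against 9.88, 10.33 and 9.67 in WT. Its high value on WT replicate 2 set its fold change, which was -0.17 ± 0.20 with that array and 0.013 without it. Mrps25 had 11.18, 10.66 and 11.27 in N1-IC, against 11.12, 11.34 and 11.25 in WT, so that N1-IC replicate 2 alone lay low. Mrps22, at -0.21 ± 0.18, had 9.98, 9.55 and 9.60 in N1-IC, against 9.80, 10.21 and 9.76 in WT, with overlap. The 95% half-width of a member's log2 fold change had a median of 0.26, and the bounds of all 76 intervals lay between -0.70 and 0.54.

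Other probe sets of the same genes had a median near 0. Of the 76 members 34 had 1 probe set and 42 had several. The 80 probe sets other than the brightest had 43 lower and 37 higher means in N1-IC (53.8% lower, against 49.3% of all probe sets with 1 symbol) and a median log2 fold change of -0.0033. Among the 50 at or above the median probe-set level 30 were lower, with a median of -0.025, and among the 30 dimmer ones 13 were lower. In 28 of the 42 genes at least 1 probe set disagreed with the brightest in sign. The widest gaps came from dim probe sets. One of Mrpl3 lay at 4.78, 4.00 and 4.03 in N1-IC, against 6.72, 4.74 and 5.08 in WT, and one of Mrps9 at 4.63, 5.39 and 5.09, against 6.46, 6.54 and 5.78. For Mrpl52 and Mrpl15 a dim probe set was higher in N1-IC, by 0.94 and 0.86, where the brightest had -0.11 and -0.17. With all 34958 named probe sets fitted together, 0 of 156 member probe sets passed (smallest limma adjusted p = 0.611).

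**Figure D4:**
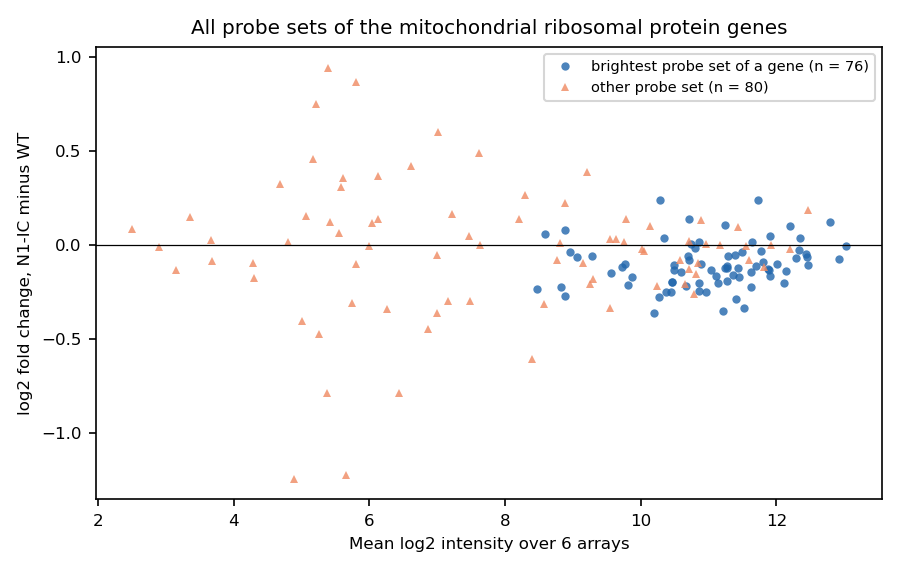
Log2 fold change (N1-IC minus WT) of each of the 156 member probe sets against its mean log2 intensity over the 6 arrays, with the brightest probe set of each gene as blue circles (76) and the others as orange triangles (80). The blue points lie between -0.36 and 0.24, and the wide scatter to the left belongs to dim probe sets.

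Related genes of mitochondrial protein synthesis were set beside the members. Mitoribosomal proteins that go by another name were lower in 4 of 4 measured genes. Ptcd3, a small-subunit protein that helps to load messenger RNA, had 9.82, 9.73 and 9.94 in N1-IC, against 10.15, 10.33 and 9.91 in WT, a log2 fold change of -0.30 ± 0.13. Gadd45gip1, Chchd1 and Dap3 had -0.33, -0.20 and -0.19, and the groups overlapped in all 4. All 4 were highest on WT replicate 2, as were most members. In a list of translation factors 11 of 14 genes were lower (median -0.11). It also held Lrpprc, Slirp, Oxa1l, Letm1 and Mtfmt, which are not such factors. In a list of tRNA synthetases 16 of 21 genes were lower (median -0.080). It also held Qrsl1, Gatb and Gatc, which are not synthetases. Mtrf1l, a release factor, had -0.43 ± 0.15 and Lars2, which charges leucine tRNA, had -0.35 ± 0.14, both lower on every N1-IC array. Yars2, which charges tyrosine tRNA, was higher on every N1-IC array, at 0.24 ± 0.10. Assembly and ribosomal RNA modification genes split 15 lower to 12 higher (median -0.057), with Mettl15 at 0.67 ± 0.25 and Mettl17 at -0.43 ± 0.15. That list also held Nsun3, which methylates the mitochondrial methionine tRNA and not ribosomal RNA, at 0.73 ± 0.20. Without it 15 were lower and 11 higher (median -0.066), still counting Lyrm7 (0.19 ± 0.15, at low signal), an assembly factor of a respiratory complex. Mitochondrial transcription and RNA processing genes split 6 to 4, with Supv3l1, an RNA helicase gene, at -0.37 ± 0.15. In each of these lists 0 genes passed the limma fit over all genes.

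Among 12 nuclear regulators of mitochondrial genes 0 passed, 7 were lower and 5 higher. Pprc1, a coactivator of the PGC-1 family, had 8.69, 8.61 and 8.91 in N1-IC, against 9.39, 9.31 and 9.07 in WT, a log2 fold change of -0.52 ± 0.13. Gabpa, an ETS factor that binds promoters of mitochondrial protein genes, ran the other way, with 10.78, 10.98 and 10.89 in N1-IC, against 10.16, 10.27 and 10.62 in WT, a log2 fold change of 0.54 ± 0.14. Neither gene's groups overlapped, and both had a limma adjusted p of 0.618. Ppargc1b, also of the PGC-1 family, had -0.62 ± 0.18 at low signal, and Nrf1, another activator of such promoters, had -0.075 ± 0.17. Myc had -0.55 ± 0.23, and its groups overlapped.

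Against other gene groups, oxidative phosphorylation subunits stood at a median of -0.064, with 58 of 80 lower, and cytosolic ribosomal proteins at 0.0018, with 25 of 51 lower. Of these 51 genes 32 had a mean within 1 log2 unit of the highest value of the whole table (14.55), and the part of signal saturation in their median was not tested. A list of cytosolic ribosome biogenesis genes had a median of -0.22, with 19 of 21 lower, among them Nop2 at -0.37 ± 0.12 and Ppan at -0.52 ± 0.20. That list also held Srm, the spermidine synthase of polyamine metabolism, at -0.41 ± 0.13, and without it 18 of 20 were lower (median -0.21). DNA replication genes had 11 of 20 and mitosis genes 9 of 19 lower. WT replicate 2 had the highest array median also for oxidative phosphorylation (0.073), DNA replication (0.13) and ribosome biogenesis (0.13). None of these lists held a gene past the threshold, and no list was tested against another.

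**Figure D5:**
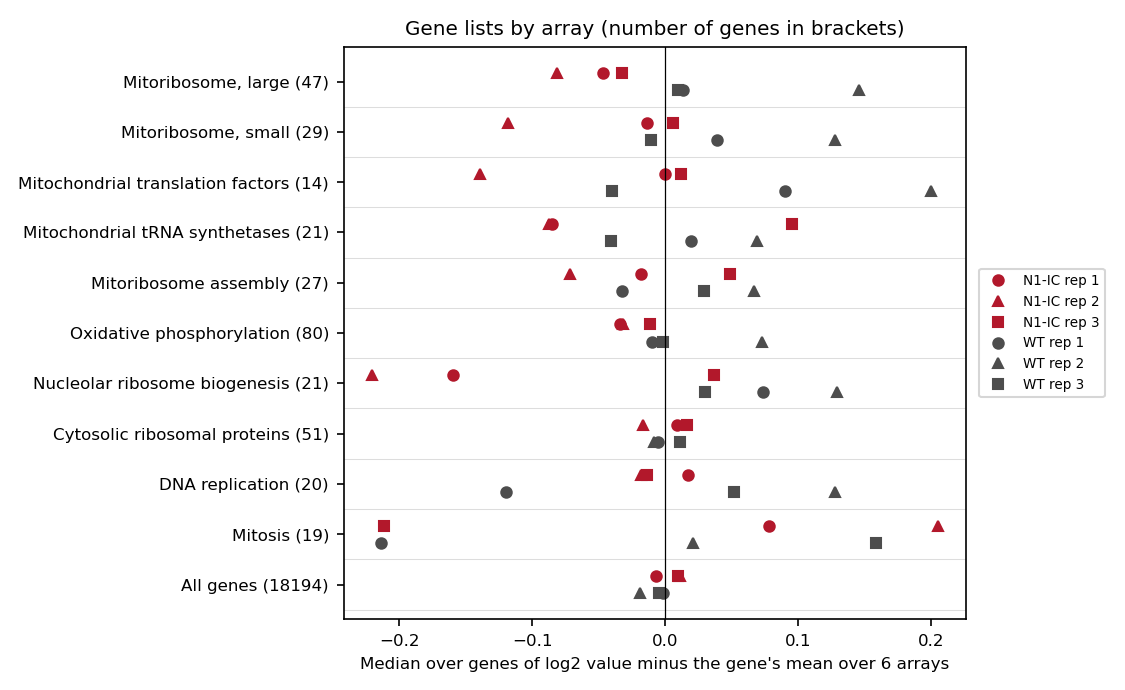
Median over the genes of each list of the log2 value minus the gene's own 6-array mean, 1 symbol per array, N1-IC in red above WT in grey, with the number of genes in brackets. WT replicate 2 (grey triangle) is the rightmost array for both mitoribosomal lists. Of the cytosolic ribosomal proteins 32 of 51 have a mean within 1 log2 unit of the highest value of the table.

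The promoters of these genes carried certain motifs more often than promoters at large. RefSeq windows were matched for 67 of 76 members, and the letters were searched on both strands of the window first listed for each gene. The ETS core CCGGAAG was present in 24 of 67 (35.8%), against 13.8% of 14369 measured genes. The YY1 motif AAGATGGC was present in 12 (17.9%), against 3.71%, and the palindromic NRF1 motif in 12 (17.9%), against 7.98%. The E-box CACGTG, the site of MYC, was present in 5 (7.46%), against 9.04%. Over all 27025 genes of the table the shares were 9.12%, 2.88%, 4.78% and 7.24%. None of these motifs contains another. Median GC content was 58.3% in members and 58.7% in measured genes. In the promoters printed above, Mrps12 held the YY1 letters from position -199 and the ETS letters from position 2 relative to the start, Mrps18b and Mrps23 held the ETS letters from positions 44 and 16, Mrps11 held the YY1 letters from -107, and Mrpl16 held none of the 4. Members with the ETS letters had a median log2 fold change of -0.093 (18 of 24 lower), and those without had -0.12 (35 of 43 lower). Both the Mrps12 promoter, from a gene lower in N1-IC, and the Mrps23 promoter, from a gene higher in N1-IC, thus held the ETS letters. A match in letters does not show that a factor binds.

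A head-to-head neighbour, starting on the opposite strand within 1000 bases, was found for 26 members, all with a measured neighbour. Mrps11 and Mrpl46, a small- and a large-subunit gene, form 1 such pair. Mrps11 had 10.22, 10.42 and 10.46 in N1-IC, against 10.55, 10.74 and 10.41 in WT, and the pair had log2 fold changes of -0.20 and -0.17. Sars2, the mitochondrial serine tRNA synthetase gene that starts 147 bases from Mrps12, had -0.13 ± 0.11 beside -0.35 in Mrps12. Twnk, the mitochondrial DNA helicase gene opposite Mrpl43, had -0.16, and Ndufb5, of respiratory complex I, opposite Mrpl47, had -0.041. Of the 24 neighbours that were not members 18 had a lower mean in N1-IC (median -0.11), where 47.4% of all genes did, and 15 had the sign of their member. Since most members and most neighbours were lower, many pairs share a sign in any case, and their agreement was not tested. The largest change of a neighbour was that of Ppp1r10, opposite Mrps18b, at -0.73 ± 0.25. None of the neighbours passed in the limma fit.

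Members were spread over 17 chromosomes, with none on X or Y, and at most 11 on 1 chromosome. On chromosome 11, 9 of these 11 genes had a lower mean in N1-IC, and on chromosome 17 it was 7 of 8, Mrps18b and Mrpl28 among them.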

How the data were processed

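Per the labels, sorted cells gave 5 ng of RNA each for NuGEN Ovation amplification and Affymetrix arrays. The authors deposited linear intensities, a value for each probe set on each array, made with RMA per the submitters' processing notes (version not given in the sources used here). Sorted values of each array lay within 0.103 log2 units of the mean array, so differences are relative to other genes. Here log2 was taken with no offset. Gene names came from the platform annotation and chromosomes and promoters from RefSeq (GRCm38.p6). N1-IC was compared with WT by limma 3.58.1 under R 4.3.3 (lmFit, eBayes, all 6 arrays, no block) over 18194 genes, with Benjamini-Hochberg adjustment and a threshold of 0.05. The fit was tested on simulated data. The number of arrays limits the precision.

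The members and the gene lists were chosen with earlier results of these data known. Genes named are the 5 highest and 5 lowest by log2 fold change in each subunit and those with the smallest p. Those with the largest and smallest range or the widest disagreement between probe sets were added, with some fixed members. Of most other lists up to 3 genes are named. Named beyond this rule are Nrf1 and Myc, the mitoribosomal proteins with another name, head-to-head neighbours, and genes that describe the samples or a list. Other members are given by place in the ribosome.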

Additional observations from a re-analysis of the deposited data

How the results depend on the processing

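In every alternative run, 0 members passed the threshold. The large-subunit median stayed below 0 in all 19 alternatives, between -0.14 and -0.051, and the small-subunit median in all 19, between -0.15 and -0.044. The small-subunit median was -0.044 with WT replicates 1 and 2 left out together, an alternative chosen after seeing the data. Without 1 array, 56 to 64 members had a lower mean, and 54 did with probe sets averaged within genes. Members without overlap in either direction numbered 18 (14.8% of all genes), 11 with median centring (16.1%), 30 of 156 over all probe sets (14.6%), 39 with WT replicates 1 and 2 left out (46.8%) and 22 to 35 without 1 array (22.8% to 34.1%), so the share of all genes also grew with fewer arrays. Genes past the threshold over the whole series numbered 1, and 3 with a mean-variance trend, 2 with array weights, 2 with only the brighter genes tested (median level and up), 5 with the mean of probe sets, 4 at a threshold of 0.1, 0 without X and Y genes, 3 with WT replicates 1 and 2 left out (the lone WT array is then assumed to vary like the N1-IC arrays), and 0 to 5 without 1 array (5 without WT replicate 2, 0 without WT replicate 3). With the replicate block it was 0. Correlations of deviations between same-numbered samples were 0.0093, 0.061 and -0.11 for replicates 1, 2 and 3. Between differently numbered samples they ran from -0.092 to 0.093. These values cannot show whether same-numbered samples shared a batch.

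Of 496 values of 31 named members under the alternatives, 31 changed sign, in 13 members. With median centring Mrpl24, Mrps33 and Mrps9 had 0.060, 0.032 and 0.051. With the mean of probe sets Mrpl21, Mrpl1, Mrps2, Mrpl3, Mrpl52 and Mrpl15 had 0.079, -0.24, -0.13, -0.29, 0.090 and 0.17. With WT replicates 1 and 2 left out Mrpl50, Mrpl44, Mrpl24, Mrps33, Mrpl46, Mrps9 and Mrpl52 had -0.017, -0.046, 0.040, 0.034, 0.12, 0.056 and 0.19. Without 1 array the ranges were -0.041 to 0.013 for Mrpl24, -0.052 to 0.098 for Mrps18a, -0.10 to 0.18 for Mrps2, -0.059 to 0.048 for Mrpl3, -0.096 to 0.076 for Mrps9, -0.32 to 0.013 for Mrpl46 and -0.26 to 0.0044 for Mrpl52. Beyond the construction of each alternative, the cause was not tested.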
